A study of Mus musculus with 6 samples.

Results

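The accessible chromatin around 10 genes of the bone morphogenetic protein (BMP) pathway was described in cultured mouse adipocytes. They are the ligand genes Bmp2, Bmp4, Bmp7 and Bmp8b, the receptor genes Bmpr1a, Bmpr1b, Acvr1 and Bmpr2, and the signal transducer genes Smad1 and Smad5. The genes were chosen by name, out of 21851 protein-coding genes with an annotated protein-coding start site in GENCODE, and all 10 were found in the annotation. For each gene, every ATAC-seq peak was taken whose summit lay in the gene or within 50 kb to either side of it, and a peak within 1 kb of a start site was called a promoter peak. These loci held 221 of the 194496 regions obtained by merging the peaks of all libraries.

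ATAC-seq cuts and tags DNA that is open to a transposase, and the deposited lists give the places where cuts pile up over the local background. There were 6 libraries, each from 50000 nuclei of primary cells differentiated for 7 days, 2 each of beige, white and brown adipocytes of wild-type male C57BL/6J mice aged 3 to 4 weeks. Beige and white cultures both began as the stromal vascular fraction of inguinal fat, and brown cultures as that of brown adipose tissue. The beige and brown induction media held 5 μM dexamethasone, 0.5 mM isobutyl methylxanthine (IBMX), 1 nM triiodothyronine (T3), 1 μM rosiglitazone and insulin, which the labels give as 5 μg/ml. White cultures received 1 μM dexamethasone with the same IBMX, insulin at the same dose by the labels, and neither T3 nor rosiglitazone. The methods of the study state lower insulin doses than the labels, and unequal ones for beige and white, so the dose is uncertain. After 48 h the medium was reduced to insulin, T3 and rosiglitazone in beige and brown cultures and to insulin in white cultures. Beige and white thus differed in several agents at once, brown and beige at least in the tissue of origin, and brown and white in both, so these factors cannot be told apart. The brown libraries are known from the labels alone, and whether they were prepared together with the others is not given in the sources used here, so separate handling and condition cannot be told apart either. The stromal vascular fraction is a mixture of cells, and the number of mice behind a culture is not given in the sources used here.

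The lists held 109143 to 127490 peaks, with the brown lists the shortest at 113861 and 109143. In every library all 10 adipocyte marker genes (Adipoq, Plin1, Cidec, Fabp4, Lipe, Pnpla2, Lpl, Pparg, Cebpa and Dgat2) had a promoter peak. Ranked by fold enrichment within the list of the library, these peaks ran from percentile 2.54 (Adipoq) to 93.6 (Dgat2), both in beige replicate 1. Of 5 brown adipocyte markers, 5 had one in both brown libraries and 3 or 4 in the others, and Ucp1 had one in the brown libraries alone. The Ucp1 peaks were weak, with a -log10 q of 3.91 and 2.97 in lists that hold every peak with q under 0.05. Promoter peaks were also found for 2 or 3 of 6 macrophage, 3 or 4 of 5 endothelial, 3 or 4 of 5 progenitor, 3 or 4 of 4 pericyte and smooth muscle and 0 to 2 of 4 skeletal muscle markers. The part of such cells in the values below was not tested. In a given library 65.8% to 66.7% of all protein-coding genes had a promoter peak, so these marker counts alone do not identify a cell type.

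BMP ligands are secreted dimers that bring together type I and type II receptors, both of which are serine/threonine kinases. The type II receptor phosphorylates the type I receptor, which then phosphorylates SMAD1, SMAD5 or their close relative, and these enter the nucleus with SMAD4. In adipose tissue the pathway is known for the commitment of progenitors to the fat lineage, with BMP4 studied mainly in white fat, BMP7 in brown adipogenesis and BMP8B as a factor made by brown adipocytes.

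The strength of a peak was expressed as a percentile, the share of the peaks of the same library whose fold enrichment lay at or below its own. Fold enrichment is relative to each library, so only these ranks were compared. With 2 libraries a condition, an exact permutation test allows no two-sided p below 0.333 for 1 condition against another, and no two-sided p below 0.067 for 1 against the other two together. Conditions were therefore compared by their single values and by whether these overlapped, without a test.

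Of the 10 genes, 8 had a promoter peak in all 6 libraries, where 62.0% of all protein-coding genes had one. Bmp4 had a promoter peak in no library, as did 28.6% of all genes, and Bmp8b had one in both white libraries and in none of the others. Every receptor and SMAD gene was thus among those with a promoter peak throughout, and both genes without one throughout were ligands. This depends on the setting. Bmp4 had one in all 6 libraries with the start sites of all transcripts, and Bmp8b with a promoter distance of 3 kb. With a promoter distance of 250 bp the receptor gene Bmpr1a and the ligand gene Bmp2 each had one in only 5 libraries. In these cultures fewer cells with open chromatin and less opening in each cell cannot be told apart. Over the 8 genes the median percentile was 74.0 ± 1.61 (SD, n = 2) in beige, 74.7 ± 4.75 (SD, n = 2) in white and 82.7 ± 4.19 (SD, n = 2) in brown. Over the 13547 genes with a promoter peak in all 6 libraries the same median was 88.6, 87.2 and 90.1. The median of the BMP genes lay below it in each condition, though single genes had a higher mean percentile. These were Smad5 in beige (93.1) and Bmpr1b and Smad1 in white (94.0 and 93.4) and brown (93.5 and 95.8). Ranked by -log10 q the median over the 8 genes was 87.9, 87.0 and 89.2 in the same order, and that over all genes with a promoter peak throughout was 94.1, 92.0 and 92.9.

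**Figure D1:**
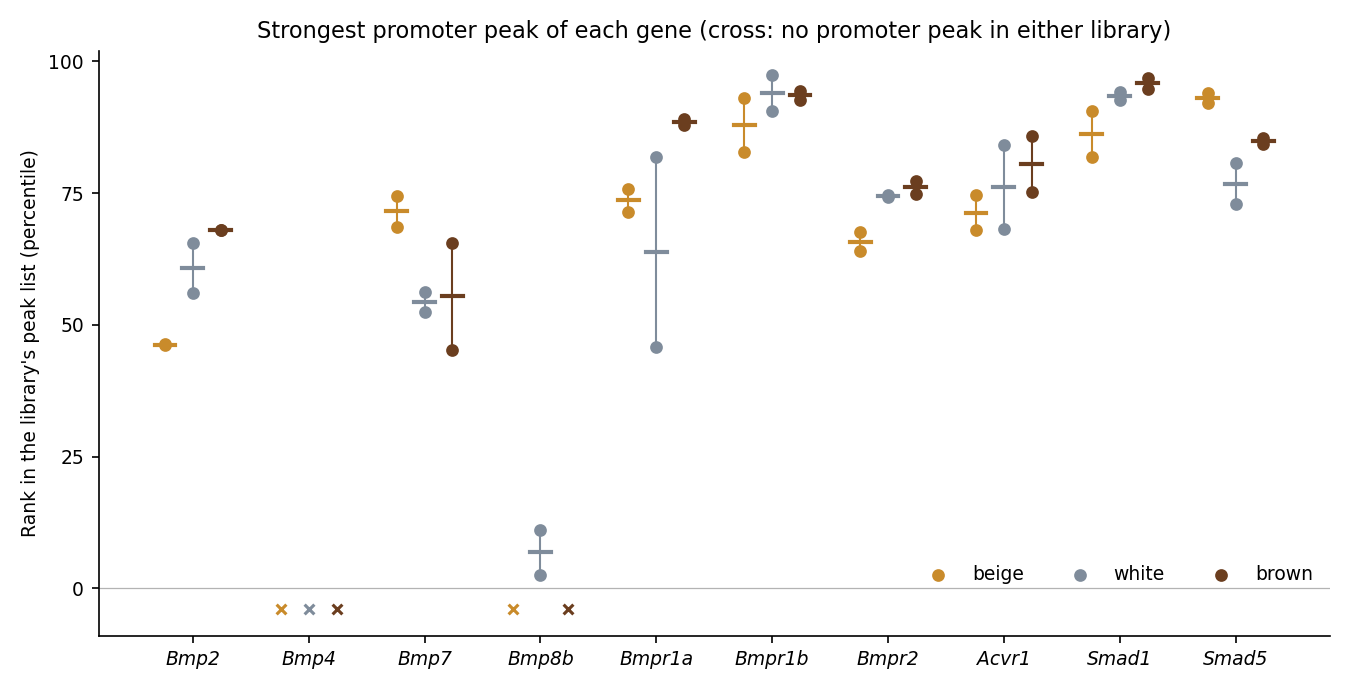
Percentile of the strongest promoter peak of each gene within the peak list of its library (vertical axis) for the 10 genes (horizontal axis). Each point is 1 library, the short bar is the mean of the 2 libraries of a condition, the thin line joins them, and a cross marks a condition without a promoter peak. Smad5 and Bmp7 were highest in both beige libraries, Bmp2 was lowest in them, and Bmp8b reached only 11.1 and 2.59 in white.

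Between beige and white, the percentiles of 2 of the 8 genes were higher in both beige libraries and those of 3 were lower, and 3 overlapped. Over all genes 28.6% were higher and 19.8% lower in beige. Against brown, 2 of 8 were higher and 5 lower in beige, beside 17.3% and 33.4% of all genes. White was above brown in 0 of 8 and below it in 5, beside 14.9% and 34.9%. The 2 genes that stood higher in beige in both comparisons were Bmp7 and Smad5, and the genes that stood lower in both were Bmp2, Bmpr2 and Smad1. With so few genes these counts describe the genes and are not compared with the background by a test. The comparisons with beige share the beige libraries.

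Bmp2, a ligand that promotes both bone and fat commitment, had its summit in the 5′ untranslated region between 65 and 86 bp after the start site (chromosome 2, 133552159) in 5 libraries and at 852 bp in brown replicate 2. The peak stood at percentiles 46.3 and 46.2 in beige, 56.1 and 65.6 in white and 67.9 and 67.9 in brown. Both beige libraries were lowest and both brown libraries highest, with no overlap between conditions. Ranked by -log10 q instead, beige stayed lowest (65.1 and 64.1), while white (66.1 and 79.1) and brown (76.1 and 74.4) overlapped. This promoter was the highest-ranked region of the locus. A second peak, 1851 bp before the start site, was present in 5 libraries and not in white replicate 1, and it ranked from 22.8 in brown replicate 1 to 56.8 in beige replicate 1.

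Bmp4, the ligand studied most in the commitment of white fat progenitors, is carried on chromosome 14 (46383520 to 46390669, minus strand). No summit lay within 1 kb of either of its 2 start sites of protein-coding transcripts in any library. The nearest region found in all 6 libraries was in its intron at chr14:46387193-46388099, 3075 bp after the nearer start site. It ranked 50.4 and 55.9 in beige, 58.8 and 60.6 in white and 53.6 and 48.2 in brown, so that both white libraries were highest and beige and brown overlapped. With the start sites of all annotated transcripts, Bmp4 had a promoter peak in all 6 libraries, at these same ranks. The lack of a promoter peak thus holds only for the start sites of protein-coding transcripts. The highest mean rank at the locus, 58.9, belonged to a peak of white replicate 1 alone, 7756 bp before the gene. Farther upstream, 31678 bp before the start site, a region was present in both white libraries (43.1 and 66.1) and beige replicate 2 (49.3) and absent from both brown libraries. A separate region next to it, 31916 bp before the start site, had a peak in brown replicate 2 (32.6), beige replicate 2 (41.8) and white replicate 2 (38.5), so this part of the locus was not without peaks in brown.

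The 250 bases before the Bmp4 start site are shown because no library had a peak there, beside those before Bmp8b, which had weak peaks in white alone, and before Smad5, the promoter of the set that ranked highest in beige. The bases are those of the RefSeq promoter table on GRCm38.p6, the mm10 assembly, without the part after the start. Capitals mark matches on either strand to the SP motif GGGCGG, the NFY motif CCAAT or the ETS motif CCGGAAG, which 32.7%, 33.8% and 6.91% of the 32851 promoters of that table held in the same stretch.
Bmp4, chr14:46390670-46390919, minus strand: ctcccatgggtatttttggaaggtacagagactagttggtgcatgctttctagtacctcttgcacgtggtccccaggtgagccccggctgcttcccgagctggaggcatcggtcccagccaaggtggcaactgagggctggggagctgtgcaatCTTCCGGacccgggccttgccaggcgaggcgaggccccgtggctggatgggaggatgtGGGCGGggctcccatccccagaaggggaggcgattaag
Bmp8b, chr4:123104911-123105160, plus strand: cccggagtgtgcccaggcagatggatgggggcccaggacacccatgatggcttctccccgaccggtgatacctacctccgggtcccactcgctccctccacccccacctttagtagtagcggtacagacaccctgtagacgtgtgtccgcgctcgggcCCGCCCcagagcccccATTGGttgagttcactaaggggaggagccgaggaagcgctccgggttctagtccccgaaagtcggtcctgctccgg
Smad5, chr13:56702760-56703009, plus strand: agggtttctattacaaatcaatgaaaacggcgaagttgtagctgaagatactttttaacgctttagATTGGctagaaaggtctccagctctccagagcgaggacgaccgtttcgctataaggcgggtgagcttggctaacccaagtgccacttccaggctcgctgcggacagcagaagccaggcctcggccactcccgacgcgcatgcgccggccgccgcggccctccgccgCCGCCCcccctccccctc
All 3 stretches held a match to the SP motif, Bmp4 also one to the ETS motif, and Bmp8b and Smad5 one to the NFY motif. Their GC content was 63.2% for Bmp4, 65.2% for Bmp8b and 60% for Smad5, and the ratio of observed to expected CpG was 0.451 for Bmp4, 0.645 for Bmp8b and 0.992 for Smad5, against a median of 0.373 over all promoters of the table. A match is a description of the letters and not a binding site.

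Bmp7, the ligand known for driving brown adipogenesis, had its promoter summit between 11 and 57 bp before the start site (chromosome 2, 172940321, minus strand) in all 6 libraries. It ranked 68.6 and 74.5 in beige, 52.5 and 56.3 in white and 65.5 and 45.3 in brown. Both beige libraries were above the other 4, and white and brown overlapped. The order between beige and each of the others was the same under all 7 alternative settings for the promoter peaks. At the locus, 7 regions were open in all 6 libraries and none differed between conditions in the sense used below. Past the 3′ end of the gene, 4 of these regions lay 76936 to 114937 bp after the start site. The strongest of them (chr2:172830974-172831572) ranked 88.4 and 88.9 in beige, 73.7 and 79.4 in white and 74.2 and 71.8 in brown, again with both beige libraries highest.

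Bmp8b, a ligand made by brown adipocytes, had the weakest promoter peaks of the set. White replicate 1 had a summit 205 bp and white replicate 2 one 431 bp after the start site (chromosome 4, 123105165), in the first coding exon. Their percentiles were 11.1 and 2.59 and their -log10 q 4.23 and 2.17, in lists that hold every peak with q under 0.05. No peak within 1 kb was left at a q value under 0.00001. Just outside the promoter distance, 1906 bp after the start site in an intron, a region was open in all 6 libraries and ranked 57.1 and 75.9 in beige, 59.6 and 40.4 in white and 76.0 and 86.3 in brown. There both brown libraries were highest, so a promoter distance of 3 kb made Bmp8b the ninth gene with a peak in all 6 libraries, with brown above white and, by 76.0 in brown replicate 1 against 75.9 in beige replicate 2, above beige. Upstream, at 22092 bp before the start site, another region open in all 6 libraries ranked 89.3 and 89.4 in beige, 73.3 and 44.7 in white and 71.3 and 79.2 in brown, with both beige libraries highest. The highest-ranked region of the locus, at 99.1 on average, was the promoter of the neighbouring gene Ppie.

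Bmpr1a, a type I receptor used by BMP2 and BMP4, had its strongest promoter peak 130 to 158 bp before its main start site (chromosome 14, 34502687, minus strand) in 5 libraries. The percentiles were 75.8 and 71.3 in beige, 81.9 and 45.7 in white and 87.9 and 89.1 in brown. Brown was above the other 4 libraries. The 2 white libraries stood 1 above and 1 below beige, and white replicate 2, whose strongest summit was at -636 bp, decided the white mean of 63.8 ± 25.6 (SD, n = 2). Ranked by -log10 q, beige (90.4 and 89.9) was above both white libraries (88.7 and 69.6), so no order of beige and white can be given. At the locus 37 regions were found and 11 of them were open in all 6 libraries. The mean percentiles of these 11 ran from 33.2 to 95.5, and the highest belonged to an intergenic region 96683 bp after the inner start site (chr14:34362984-34364252), which ranked 92.4 or higher in every library.

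Bmpr1b, the other type I receptor of this pair, has 4 annotated start sites over a gene body of chromosome 3 from 141837136 to 142169425. The promoter at the outermost 2 start sites ranked 82.8 and 93.0 in beige, 90.6 and 97.4 in white and 94.4 and 92.6 in brown, the highest promoter of the receptors, and all conditions overlapped. The start site at 141982264, inside the gene, had a promoter peak in both beige (35.4 and 46.9) and both white libraries (72.8 and 47.8) and in neither brown library. At the innermost start site, 141931523, 1 library of each condition had a peak, replicate 1 in each case, at 33.0 in beige, 32.0 in white and 37.2 in brown. The highest-ranked region of the locus was not a promoter. It covered a coding exon at chr3:141862714-141863166 and ranked 95.2 and 98.2 in beige, 89.3 and 94.8 in white and 89.5 and 87.0 in brown, where both beige libraries were above both brown libraries.

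The 250 bases before the start site that was open in the inguinal cultures alone are shown, with matches to the same motifs in capitals, since the beige and white libraries had a peak at this start site and the brown libraries did not. The summit of the merged region lay 460 bp after the start site, outside the stretch shown.
Bmpr1b internal promoter, chr3:141982265-141982514, minus strand: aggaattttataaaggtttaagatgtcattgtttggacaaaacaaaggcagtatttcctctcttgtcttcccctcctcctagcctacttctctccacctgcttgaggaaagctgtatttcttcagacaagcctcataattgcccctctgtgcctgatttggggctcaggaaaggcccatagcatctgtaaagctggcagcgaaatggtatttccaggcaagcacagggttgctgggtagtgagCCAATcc
It held 1 NFY match, and with 46.8% GC and a CpG ratio of 0.0732 it was poorer in both than the Smad5 promoter.

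Acvr1, a type I receptor also known as ALK2, had its strongest promoter peak between 129 and 156 bp before its outermost start site (chromosome 2, 58567157, minus strand). The start site of another gene, Upp2, was nearer to the merged summit, at 88 bp, so the peak belongs to both promoters. It ranked 74.5 and 68.0 in beige, 84.1 and 68.1 in white and 75.1 and 85.9 in brown. Both brown libraries were above both beige libraries, though brown replicate 1 only just above beige replicate 1, and white overlapped with each. A second peak on the Acvr1 side, 460 bp after a start site, ranked from 45.7 to 56.0 and was also open in all 6 libraries. The highest mean rank of the locus, 90.2, was that of a region in an intron of Upp2 (chr2:58589417-58590184), which ranked from 83.4 in white replicate 2 to 93.1 in brown replicate 2.

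Bmpr2, the type II receptor specific to BMP ligands, had a wide promoter peak of 1353 to 1688 bp around its start site (chromosome 1, 59763400). It ranked 67.6 and 63.9 in beige, 74.3 and 74.6 in white and 74.9 and 77.3 in brown, with beige lowest and brown highest and no overlap. This order was lost when the peaks were ranked by -log10 q, where the 6 libraries lay between 86.1 and 88.5 and all conditions overlapped. The number of peaks at the locus was 11 and 14 in beige, 18 and 24 in white and 11 and 8 in brown, so that white had the most. At a q value under 0.00001 it was 7 and 11 in beige, 10 and 13 in white and 10 and 7 in brown, and the conditions overlapped. Per 100 kb, with all peaks, there were 5.80 ± 0.984 in beige, 9.74 ± 1.97 in white and 4.41 ± 0.984 in brown (SD, n = 2 each). The highest-ranked region was the promoter of the neighbour Fam117b, at 94.5 on average.

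Smad1, a receptor-activated SMAD, had its summit 23 to 50 bp after the start site (chromosome 8, 79399518, minus strand). It ranked 90.5 and 81.9 in beige, 94.2 and 92.7 in white and 94.7 and 96.9 in brown, with beige lowest and brown highest. Beige stayed below the others under all 7 alternative settings, while white and brown overlapped when ranked by -log10 q. The white libraries had 14 peaks each at this locus, against 6 and 10 in beige and 9 and 8 in brown. At a q value under 0.00001 the white libraries had 7 and 10, beige 5 and 7 and brown 5 and 7, without the gap. Another region 968 bp after the start site, in an intron, was open throughout and ranked highest in white (67.4 and 66.4), ahead of brown (56.2 and 62.6) and beige (52.8 and 47.8). The promoter of the neighbour Mmaa had the highest mean rank of the locus, 94.7.

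Smad5, the other receptor-activated SMAD of the set, differed from Smad1 in the place of beige. Its promoter peak ranked 94.0 and 92.1 in beige, 72.9 and 80.7 in white and 84.3 and 85.5 in brown, with no overlap between any 2 conditions and beige highest. The means were 93.1 ± 1.35 in beige, 76.8 ± 5.55 in white and 84.9 ± 0.807 in brown (SD, n = 2 each), a difference of 16.3 between beige and white. The summit lay within 70 bp of the nearest of 3 start sites (the first at chromosome 13, 56703010) in all libraries. The beige peaks were also the widest, at 1386 and 1763 bp, against 638 and 973 bp in white and 1024 and 702 bp in brown. All 3 orders held under all 7 alternative settings, ranks by -log10 q included (97.4 and 96.8 in beige, 81.9 and 90.0 in white, 91.3 and 91.2 in brown). The highest-ranked region of the locus did not follow this order. It lay 38329 bp before the start site (chr13:56664285-56665171) and ranked 89.0 and 86.0 in beige, 93.3 and 86.8 in white and 92.3 and 91.8 in brown.

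Beyond the promoters, the 221 regions of the 10 loci were sorted by the libraries with a peak in them. All 6 libraries had a peak in 61 regions, or 27.6%, where 30.2% of all merged regions had one. Of these 61, 10 lay within 1 kb of a start site of one of the 10 genes, 4 at the promoter of other genes alone and 47 were distal. A single library accounted for 84 regions. By position 125 regions were intronic, 95 of them in an intron of the BMP gene itself, 73 were intergenic, 9 lay in a 5′ and 6 in a 3′ untranslated region and 8 in a coding exon. Locus peaks per 1000 peaks of the list were 1.19 and 1.18 in beige, 1.20 and 1.16 in white and 1.12 and 1.04 in brown, so that both brown libraries were lowest.

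**Figure D2:**
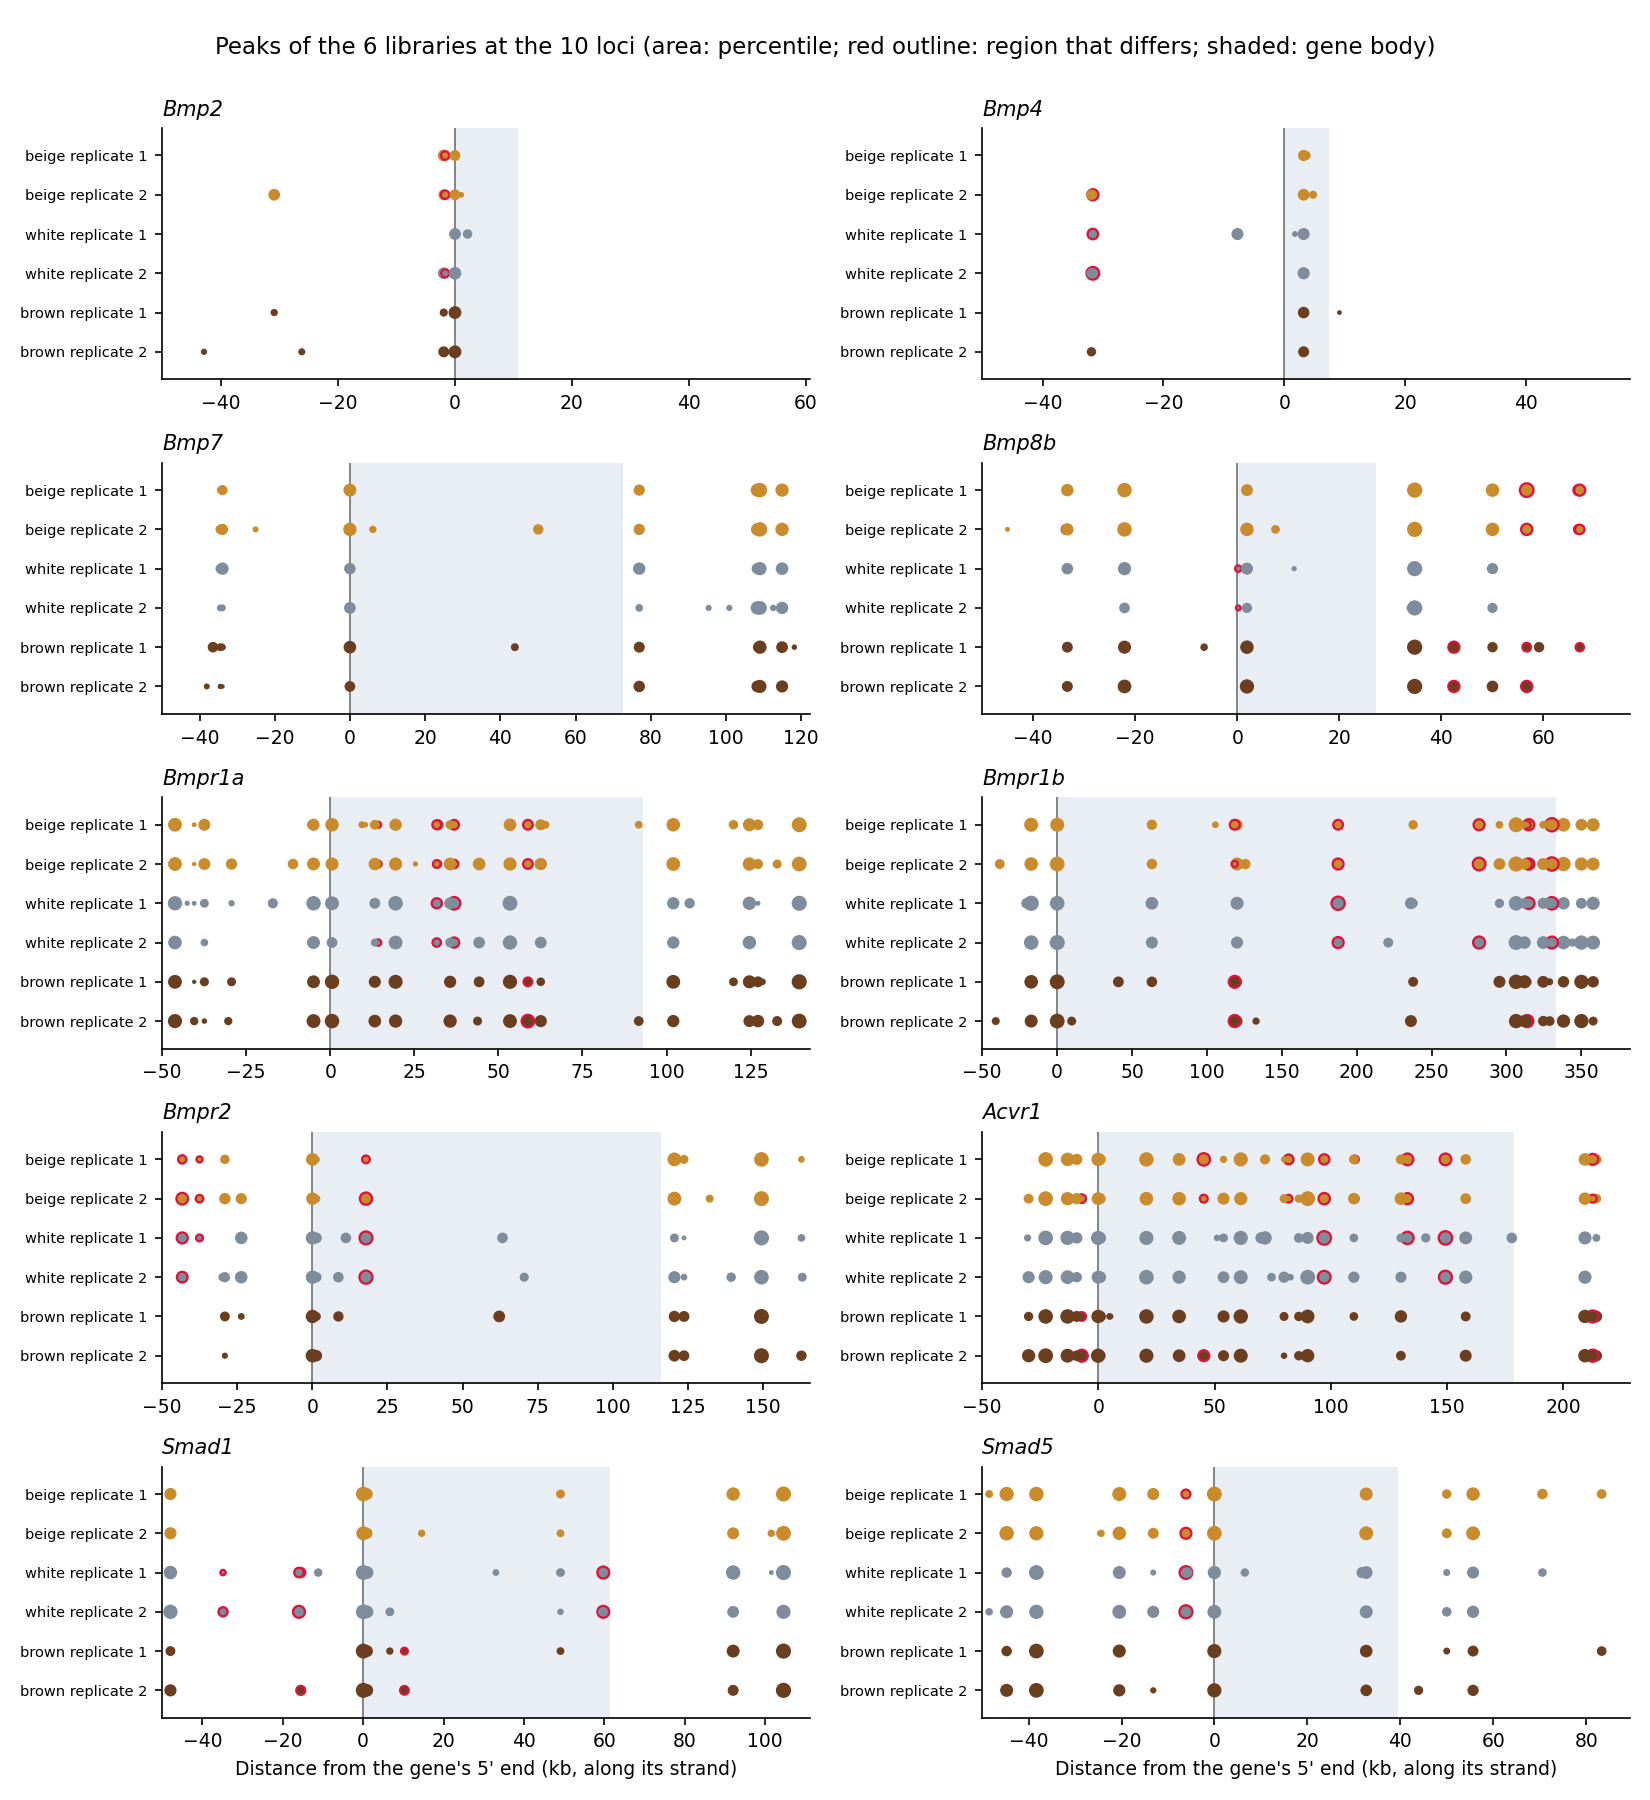
Peaks of the 6 libraries at the 10 loci, by distance in kb from the 5′ end of the gene along its strand (horizontal axis), 1 row a library. The area of a point grows with the percentile of the peak, the gene body is shaded, and a red outline marks regions with a peak in both libraries of a condition and in neither of another. Bmpr1a and Acvr1 carried many peaks inside the gene, while Bmp2 and Bmp4 had few peaks, 2 to 5 in each library.

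The loci differed in how many peaks they held. Averaged over the 6 libraries, Bmpr1a had 13.2 peaks per 100 kb, Acvr1 9.75, Smad5 9.21, Bmp8b 7.22, Bmpr2 6.65, Smad1 6.31, Bmp7 6.19, Bmpr1b 4.51, Bmp4 3.11 and Bmp2 3.01. The median over 21938 protein-coding genes was 7.41, with quartiles of 3.76 and 11.3. Bmpr1a alone lay above the upper quartile and Bmp2 and Bmp4 alone below the lower. At Bmpr2 and Smad1 both white libraries held more peaks than each of the other 4 libraries, though not at a q value under 0.00001.

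A region was said to differ between conditions when both libraries of 1 condition had a peak in it and neither library of another did. There were 36 such regions at the 10 loci, or 16.3%, beside 12.5% of all merged regions. Of the 36, 26 were open in both beige, 15 in both white and 8 in both brown libraries, and 25 were absent from both brown libraries, 14 from both white and 7 from both beige. These counts were not made over all merged regions, so they have no background share beside them. The pattern with the most regions was open in beige and white and absent from brown, with 8 regions or 3.62%, beside 1.16% of all merged regions. Another 5 were open in beige and brown and absent from white (background 1.25%), 4 in beige alone (1.94%), 4 in white alone (1.22%), 2 in brown alone (0.878%) and 0 in white and brown (0.243%). The other 13 were open in both libraries of 1 condition, neither of another and 1 of the last. Regions open in both beige and neither brown library numbered 19, or 8.60%, against 4.80% over the genome, and the reverse 2, or 0.905%, against 1.56%. Those in both white and neither brown library numbered 14 (6.33%, against 3.48%), and the reverse 8 (3.62%, against 2.94%). Between beige and white the shares were near those over the genome, with 11 in beige (4.98%, against 4.49%) and 5 in white (2.26%, against 1.98%). The brown lists were the shortest. With all lists shortened to their 109143 strongest peaks the loci held 200 regions. Of these, 7 were open in beige and white alone, 3 in beige and brown, 2 in beige, 2 in white and 3 in brown. The shares over all merged regions given above are for the full lists, so these counts cannot be set beside them.

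**Figure D3:**
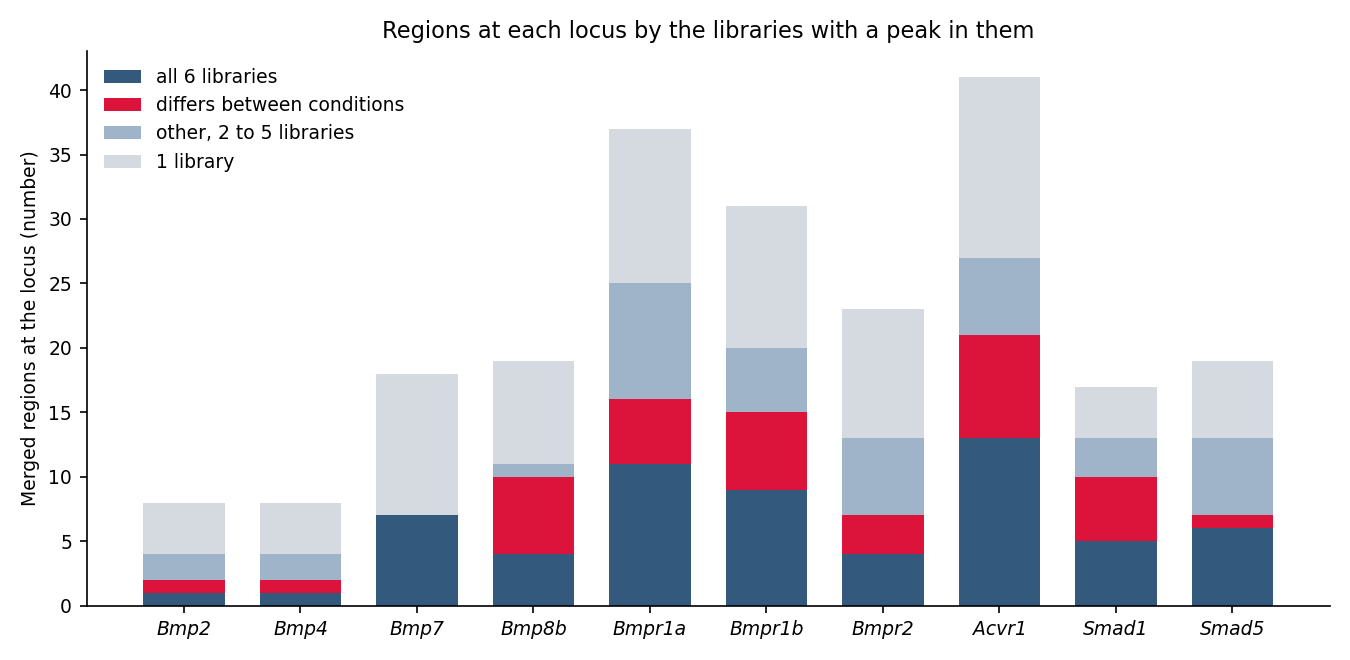
Number of merged regions at each of the 10 loci (vertical axis), stacked by the libraries with a peak in them. Acvr1 had the most regions (41) and the most that differed (8), and Bmp7 had 18 regions of which 0 differed.

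These differences rested on peaks of middling or low rank. In all but 2 of the 36 regions the lowest -log10 q of a library with a peak was over 2, in 15 it was over 5 and in 0 over 10. A peak that is missing from a list may lie just under the threshold, which lists without reads cannot show. Only 3 of the 36 regions lay at a promoter, 20 were intronic, 13 intergenic, 2 in a coding exon and 1 in a 3′ untranslated region.

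**Figure D4:**
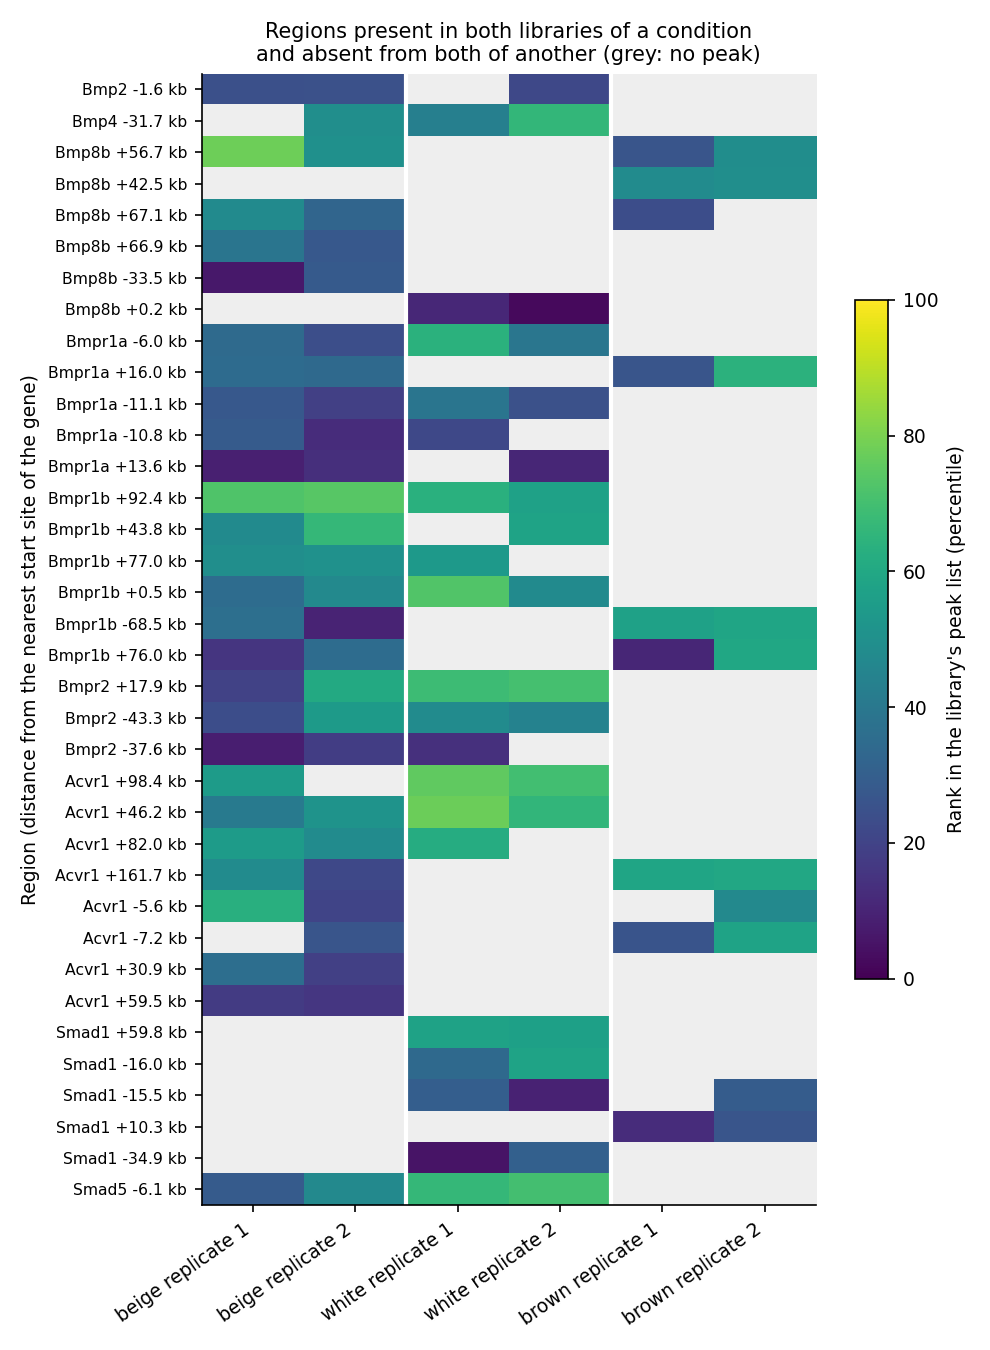
Percentile (colour scale from 0 to 100) of the 36 regions that differ between conditions, 1 row a region and 1 column a library, with grey for no peak. Rows are labelled by gene and distance from its nearest start site in kb. The brown columns are empty in 25 rows, a count without a share over all merged regions, and the highest single value is 77.8.

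At the ligand genes, Bmp2 and Bmp4 had 1 differing region each, Bmp7 none and Bmp8b 6. The Bmp2 region lay 1614 bp before the start site. It was open in both beige libraries (24.4 and 24.8) and white replicate 2 (21.6) and in neither brown library. In the separate region beside it, 1851 bp before the start site, brown replicates 1 and 2 ranked 22.8 and 47.7. This stretch of the Bmp2 locus was therefore not closed in brown. At Bmp8b 2 regions downstream of the gene stood out by rank. One, 56740 bp after the start site, was open in beige (77.8 and 50.1) and brown (26.3 and 49.0) and in neither white library. The other, 42467 bp after it, was open in brown alone (48.2 and 49.2). Both were nearer to the start site of another gene, the first to that of Hpcal4, at 21322 bp, and the other to that of Ppie, at 7681 bp.

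At the type I receptors, the region of highest rank at Acvr1, 98372 bp after a start site in an intron, was open in both white libraries (75.6 and 69.6) and beige replicate 1 (54.9) and in no brown library. The next, open in beige (40.7 and 51.3) and white (77.5 and 66.0) and not in brown, lay 84 bp from the start site of the predicted gene Gm17409 inside the Acvr1 intron. Of the 8 differing regions of Acvr1, 2 were beige alone and 1 was beige and brown. At Bmpr1a the leading region was intronic, 5950 bp before the inner start site, and open in beige (34.7 and 24.1) and white (63.9 and 39.4). The next, 16001 bp after that start site, was open in beige (34.9 and 34.3) and brown (26.5 and 64.4). Bmpr1b had 6 differing regions. The first, in its 3′ untranslated region, was open in beige (72.5 and 74.0) and white (63.5 and 57.1) and not in brown, and the second, in an intron 43830 bp after a start site, in beige (47.8 and 66.7) and white replicate 2 (58.0).

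Bmpr2, the type II receptor, had 3 differing regions, none of them open in a brown library. The leading one was intronic, 17858 bp after the start site, and ranked 19.6 and 60.6 in beige and 68.6 and 70.5 in white. The next, at -43313 bp, ranked 23.7 and 54.6 in beige and 48.1 and 44.4 in white.

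At the SMAD genes, Smad1 had 3 regions open in white alone, out of 4 at all 10 loci. One covered its coding exon at chr8:79339643-79339863 and ranked 57.7 and 56.7, and another lay 15955 bp before the start site and ranked 34.2 and 58.0. The third, 34852 bp before it, ranked 5.09 and 30.7. Next to the second, 15509 bp before the start site, a separate region had a peak in white (29.8 and 9.42) and in brown replicate 2 (29.3). That part of the locus was therefore not without peaks in brown. Smad1 also had a region open in brown alone, 10278 bp after the start site, at 12.8 and 26.5. Smad5 had 1 differing region, 6143 bp before its start site, open in beige (28.6 and 47.1) and white (66.6 and 70.2). Its white values were the higher ones, whereas the Smad5 promoter ranked higher in beige.

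The sequences of 6 of these regions are given, 200 bases around the strongest summit on the plus strand of mm10, as examples of 5 patterns: shared by all beige and white libraries and missing in brown (Bmpr2 and Smad5), in both white libraries and 1 beige library (Acvr1), in beige and brown, in brown alone (both Bmp8b) and in white alone (Smad1). Capitals mark matches to any of the motifs searched other than the SMAD core CAGAC.
Acvr1 intron, chr2:58417801-58418000: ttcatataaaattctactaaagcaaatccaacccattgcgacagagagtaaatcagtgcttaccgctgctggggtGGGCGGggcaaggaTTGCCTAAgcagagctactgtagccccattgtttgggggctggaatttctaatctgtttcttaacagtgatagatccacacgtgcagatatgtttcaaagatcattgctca
Bmpr2 intron, chr1:59781159-59781358: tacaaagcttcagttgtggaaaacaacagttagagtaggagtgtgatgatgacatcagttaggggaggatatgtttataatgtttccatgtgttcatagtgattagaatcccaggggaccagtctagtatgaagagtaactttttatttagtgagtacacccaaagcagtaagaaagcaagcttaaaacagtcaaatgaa
Smad5 upstream, chr13:56696768-56696967: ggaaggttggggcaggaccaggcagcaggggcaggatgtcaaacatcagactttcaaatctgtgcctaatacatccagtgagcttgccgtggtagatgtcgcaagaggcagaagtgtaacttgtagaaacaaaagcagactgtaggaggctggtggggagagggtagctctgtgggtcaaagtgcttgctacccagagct
Bmp8b downstream, open in beige and brown, chr4:123161806-123162005: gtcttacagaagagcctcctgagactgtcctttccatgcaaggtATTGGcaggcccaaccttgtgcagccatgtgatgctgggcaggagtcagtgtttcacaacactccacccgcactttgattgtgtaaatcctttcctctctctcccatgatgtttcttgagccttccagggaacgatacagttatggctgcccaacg
Bmp8b downstream, open in brown, chr4:123147533-123147732: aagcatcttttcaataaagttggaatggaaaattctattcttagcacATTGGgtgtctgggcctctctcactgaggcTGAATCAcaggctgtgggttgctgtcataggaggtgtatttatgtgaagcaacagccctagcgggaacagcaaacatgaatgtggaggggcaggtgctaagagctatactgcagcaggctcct
Smad1 upstream, open in white, chr8:79415374-79415573: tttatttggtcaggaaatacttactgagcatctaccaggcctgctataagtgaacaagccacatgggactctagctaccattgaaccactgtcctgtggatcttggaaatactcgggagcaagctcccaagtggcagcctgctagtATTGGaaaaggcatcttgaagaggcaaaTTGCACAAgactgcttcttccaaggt
The Acvr1 window held an SP match and a match to the C/EBP motif TTGCNNAA, and the Smad1 window an NFY and a C/EBP match. Both Bmp8b windows held an NFY match, and the one open in brown also a match to the AP-1 motif TGANTCA. In the Bmpr2 and Smad5 windows none of these motifs was found.

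SMAD proteins bind short sequences, so 200 bases around the summit of each of the 221 regions were searched on both strands for the BMP-responsive SMAD motif GGCGCC, the palindrome GTCTAGAC and the core CAGAC. The motif GGCGCC was found in 6 of 24 promoter regions, or 25%, beside 15.5% of the 22540 promoter regions of the genome. These 6 were the promoters of Bmp2, Bmpr1a, Bmpr1b, Bmpr2, Acvr1 and Smad5 themselves. The windows were not matched for GC content. In distal regions it was found in 5 of 197, or 2.54%, beside 2.23% of all distal regions. The palindrome was found in 4 distal regions (2.03%, beside 0.215%), at Bmpr2, Bmpr1a, Acvr1 and Bmpr1b, and 3 of these 4 were open in a single library. The region at Bmpr1b was open in all 6 libraries and ranked 13.0 and 49.7 in beige, 44.4 and 64.3 in white and 72.8 and 61.6 in brown. The core CAGAC was in 8 promoter regions (33.3%, beside 36.8%) and 94 distal regions (47.7%, beside 43.9%). These shares depend on the window. In windows of 100 bp, GGCGCC was in 3 promoter regions (12.5%, beside 9.01%) and the palindrome in 1 distal region (0.508%, beside 0.106%). In windows of 500 bp, GGCGCC was in 8 promoter regions (33.3%, beside 28.3%) and the palindrome in 4 distal regions (2.03%, beside 0.497%).

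The window at Bmpr1b, 74157 bp after a start site in an intron, and the Bmpr1a promoter window are shown with the palindrome and GGCGCC in capitals.
Bmpr1b intron, chr3:141857267-141857466, plus strand: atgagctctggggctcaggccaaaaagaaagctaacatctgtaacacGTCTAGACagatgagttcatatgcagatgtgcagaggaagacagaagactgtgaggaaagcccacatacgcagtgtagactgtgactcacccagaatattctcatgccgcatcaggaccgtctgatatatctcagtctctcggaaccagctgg
Bmpr1a promoter, chr14:34502718-34502917, plus strand: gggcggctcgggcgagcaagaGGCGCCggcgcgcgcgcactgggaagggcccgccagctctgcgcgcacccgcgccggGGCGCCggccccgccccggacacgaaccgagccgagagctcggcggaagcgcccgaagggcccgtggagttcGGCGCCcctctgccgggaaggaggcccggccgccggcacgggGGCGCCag

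Other motifs were counted in the same windows. The SP motif was in 14 of the 24 promoter regions (58.3%, beside 45.1% of all promoter regions), the ETS motif in 2 (8.33%, beside 9.80%) and the NFY motif in 5 (20.8%, beside 25.6%). In the 197 distal regions AP-1 was found in 38 (19.3%, beside 23.1% of all distal regions), C/EBP in 29 (14.7%, beside 13.3%) and the CTCF motif in 13, beside 6.15% of all distal regions. There the ETS motif was in 7 (3.55%, beside 1.37%), the NFY motif in 37 (18.8%, beside 24.6%) and the SP motif in 15 (7.61%, beside 6.08%). For ETS the distal shares were 3.55% beside 0.759% in windows of 100 bp, and 5.08% beside 2.77% in windows of 500 bp. The cAMP response element TGACGTCA was in 1 distal region (0.508%, beside 0.473%). The PPARG DR1 and the glucocorticoid response element were in 0 windows, and were found in 0.0593% and 0.665% of all distal regions. No strict match in a window says nothing about the binding of these receptors.

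The rest of the pathway was taken from 5 lists of 55 genes in all. A promoter peak in all 6 libraries was found for 45 of them and in no library for 7, where 62.0% and 28.6% of all protein-coding genes were in these classes. All 9 SMADs and SMAD regulators and all 9 targets and partners had one throughout, as did 7 of 9 receptors and coreceptors, 14 of 18 extracellular antagonists and 6 of 10 ligands. The 7 genes without a peak were the ligands Bmp5, Bmp10, Bmp15 and Gdf2, the coreceptor gene Hfe2 and the antagonists Sost and Dand5. Eng, which encodes the coreceptor endoglin of endothelial cells, was the gene with a promoter peak in both libraries of a condition and neither of another. Its peaks were in the 2 brown libraries, at percentiles of 6.18 and 4.29 and a -log10 q of 3.03 and 2.68. Of 5 endothelial markers, 3 had a promoter peak in each brown library, 4 and 3 in beige and 4 and 3 in white. Pecam1, Kdr and Tek had one in all 6 libraries, at percentiles from 65.7 to 89.8. Tie1 had one in beige replicate 1 and white replicate 1, and Cdh5 in no library. The part of endothelial cells in the Eng peaks was not tested.

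Among the 45 genes with a promoter peak throughout, beige was above white in 11 and below it in 9, above brown in 7 and below it in 22, and white was above brown in 6 and below it in 19. The shares over all genes, in the same order, were 28.6% and 19.8%, 17.3% and 33.4%, and 14.9% and 34.9%. The inhibitors of differentiation Id1, Id2, Id3 and Id4, the classical BMP target genes, ranked lower in both beige than in both brown libraries, an order that 33.4% of all genes showed. For Id2 the percentiles were 56.4 and 51.2 in beige, 67.2 and 52.9 in white and 77.3 and 79.4 in brown. Smad4, the partner shared by all receptor-activated SMADs, ranked 94.5 and 94.7 in beige, 87.1 and 88.6 in white and 87.5 and 93.6 in brown, so that beige was highest there as it was for Smad5. The inhibitory Smad6 ranked 58.5 and 46.4 in beige, 63.9 and 34.8 in white and 64.1 and 68.2 in brown, and Smad7 34.5 and 42.6, 59.5 and 39.1, and 54.5 and 65.2. For both, brown was above beige. These genes were named for their roles and as examples after their values were seen.

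How alike the libraries were bears on all of this. The share of covered bases in common was 0.671 between the beige, 0.581 between the white and 0.627 between the brown libraries, and between conditions it ran from 0.541 to 0.634. Over the 221 regions the share of regions in common was 0.662, 0.552 and 0.643 within beige, white and brown, and 0.486 to 0.595 between conditions. The white libraries were thus no more alike than some pairs of libraries of different conditions, and a pattern in white rests on a wider spread between its replicates.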

How the data were processed

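ATAC-seq was carried out on 6 cultures of primary adipocytes, 2 each of beige, white and brown. The authors trimmed reads with Trimmomatic, aligned them to mm10 with BWA and called peaks for each library with MACS2 at a q value under 0.05, with default parameters. Whether reads were shifted for the transposase is not given in the sources used here. The 2 replicates are described as biological for beige and white, and the brown cultures are known from the labels alone. The deposited narrowPeak lists give each peak's summit, its fold enrichment over the local background (a ratio) and its −log10 p and −log10 q values. They hold no read counts. The study lists read totals for the beige and white libraries, which were alike. A smaller share of reads mapped in beige, so both beige libraries had fewer mapped reads than both white libraries. The depth of the brown libraries is not given in the sources used here. The part of depth in the ranks was not tested, and precision rests on the number of peaks and of libraries.

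An interval listed with several summits was counted once, at its strongest. Peaks were ranked by fold enrichment within each library and joined over libraries where they shared at least 1 bp. Genes, start sites of protein-coding transcripts and features came from GENCODE M21, and promoter sequences from RefSeq on GRCm38.p6, which has rows for 8 of the 10 genes and none for Bmp2 and Bmp7. The genes, gene lists and alternatives were chosen with earlier results of these data known. All 10 genes were named, with their promoter peaks, the highest-ranked region and up to 2 differing regions a locus, chosen by mean percentile, and pathway genes with a promoter peak in both libraries of a condition and neither of another. Other pathway genes and regions, and the sequences of regions that did not differ, were chosen after their values were seen. Counting and ranking were tested on simulated data. Python 3.11.15, numpy 2.4.6, pandas 2.3.3, pysam 0.24.0 and matplotlib 3.10.9 were used.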

Additional observations from a re-analysis of the deposited data

How the results depend on the processing

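Of 17 orderings of a gene's conditions without overlap, 0 were reversed by another q threshold, promoter distance, set of start sites, list length or ranking. Ranking by −log10 q ended the order of Bmpr2 in all 3 pairs of conditions and that of Bmp2 and Smad1 between white and brown, and promoters of 3 kb ended that of Bmp2 between beige and white. With promoters of 250 bp neither Bmp2 nor Bmpr1a could be ordered, since a library then had no peak. The start sites of all transcripts gave Bmp4 a promoter peak in all 6 libraries, and promoters of 3 kb gave Bmp8b one. White and brown were without overlap in 5 genes, against 3 with promoters of 250 bp and 2 by −log10 q. The median percentile over the genes was 68.0 in beige, 66.3 in white and 77.7 in brown at a q value under 0.00001, and 87.9, 87.0 and 89.2 by −log10 q. In beige it was 70.7 with equally long lists and 78.4 with promoters of 250 bp. Regions open in all 6 libraries numbered 61, against 36 with flanks of 10 kb and 99 with flanks of 100 kb. Regions that differed numbered 36, and 54 to 68 when 1 library was left out, because a condition then needs 1 library in place of 2. They numbered 31 with equally long lists and 31 at a q value under 0.00001. At that q value regions open in white alone numbered 1 against 4, those in brown alone 1 against 2 and those in beige and brown alone 3 against 5. At the same q value the mean number of white peaks went from 21 to 11.5 at Bmpr2 and from 14 to 8.5 at Smad1. Counting every summit of an interval, an alternative chosen after seeing the data, moved 0 values. No paired analysis was possible because the labels do not say that equal replicate numbers share animals or a day. Peaks under the threshold are missing from the lists, so an absent peak may be a weak one, and 2 libraries a condition limit every comparison.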
